A study of Mus musculus with 8 samples.

Results

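The genes for the colony-stimulating factors and their receptors were examined in subcutaneous C26 colon carcinomas of mice with and without a disrupted gene for IL-6. The genes were chosen by name and are Csf1, Il34 and their receptor Csf1r, Csf2 and the receptor chains Csf2ra, Csf2rb and Csf2rb2, and Csf3 with its receptor Csf3r. All 9 were found by symbol among the 27179 genes of the deposited table. The tumors came from adult male CD2F1 mice, 4 implanted with cxC26 scr cells, the cachectic C26 line carrying a scrambled CRISPR/Cas9 guide RNA, and 4 implanted with cxC26 IL6KOs1 cells, a single subclone of the same line in which CRISPR/Cas9 had disrupted the Il6 gene. Mice in both groups were kept until cachexia, defined as a loss of more than 15% of body weight. In the study's CD2F1 mice, this subclone caused cachexia when injected in a larger number of cells than cxC26 scr, and later. Injected in the same number as cxC26 scr, its tumors shrank and disappeared. Neither the cell number nor the day of collection is named for the sequenced tumors. The effect of the disrupted gene cannot be told apart from other properties of the single subclone. Where cell number and tumor age differed, it cannot be told apart from these either, and their part was not tested.

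Colony-stimulating factors were named for the blood cell colonies they support in culture. CSF1 (M-CSF, gene Csf1) and IL-34 (Il34) are separate ligands of the receptor tyrosine kinase CSF1R, on which most tissue macrophages, monocytes and osteoclasts depend. GM-CSF (Csf2) acts on granulocytes, macrophages and dendritic cells through a specific alpha chain (Csf2ra) and a beta chain (Csf2rb) that is shared with the receptors of IL-3 and IL-5, and mice carry a further beta chain for IL-3 (Csf2rb2). G-CSF (Csf3) drives neutrophil production through its receptor CSF3R (Csf3r). In tumors, carcinoma cells and stromal cells are known sources of the ligands, whereas the receptors are carried mainly by myeloid cells.

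The 8 tumors had between 14158989 and 17048062 reads counted on genes. The targeted gene Il6 had 326 to 438 reads in the controls and 56 to 86 in the knockout tumors (log2 fold change -2.45, limma adjusted p = 1.76e-06). Epithelial markers of the carcinoma label were low. Epcam had 6 reads over the 4 cxC26 scr tumors and 30 over the 4 cxC26 IL6KOs1 tumors, Krt8 had 17 and 48, Krt19 had 1 and 1, and only Krt18 and Cdh1 of the 5 epithelial markers passed the filter on low expression. Krt18 rose from 0.67 to 3.87 log2 CPM (limma adjusted p = 3.02e-06) and Cdh1 from 0.65 to 2.11 (limma adjusted p = 0.00251). The first cxC26 IL6KOs1 tumor stood apart from the other 3 in several immune genes. A level below is log2 CPM, the log2 of counts scaled to a common library size (CPM), and a log2 fold change is the difference of mean log2 CPM, cxC26 IL6KOs1 minus cxC26 scr. In bulk tissue, fewer cells of a type and less RNA per cell cannot be told apart.

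Of the 9 genes, 7 passed the filter of at least 1 CPM in at least 4 tumors. Csf1, Csf1r, Csf2ra and Il34 passed the limma test with higher levels in the cxC26 IL6KOs1 tumors (threshold 0.05 after adjustment) and 0 of the 7 fell, where 19.1% of all 13262 tested genes rose and 20.7% fell (39.8% in either direction). At an unadjusted p-value under 0.05 the counts were again 4 and 0, and limma-voom on the recovered reads also gave 4 and 0. The same 4 genes were those whose groups did not overlap, with 17.8% of all tested genes higher without overlap, 19.3% lower and 37.1% either way. Csf1, Csf1r and Csf2ra also reached a log2 fold change of 1, as did 829 risers, or 6.25% of all 13262 tested genes. The median log2 fold change was 0.56 over the 7 genes and -0.00 over all tested genes. The ligand and receptor genes of the CSF1R axis all rose, the GM-CSF receptor rose in its alpha chain, and the ligand genes Csf2 and Csf3 were close to absent in both groups.

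**Figure D1:**
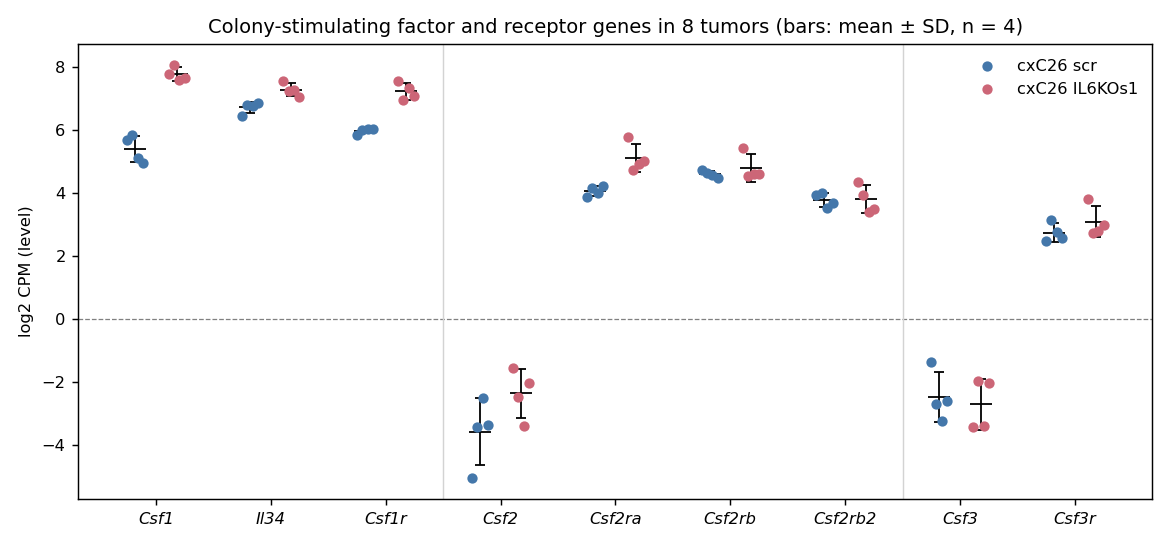
Level of each gene in log2 CPM (vertical axis) in the 4 cxC26 scr tumors (blue) and the 4 cxC26 IL6KOs1 tumors (red), with the mean and SD of each group as black bars and 1 CPM as a dashed line. The groups of Csf1, Il34, Csf1r and Csf2ra do not overlap, and Csf2 and Csf3 lie below 1 CPM in all 8 tumors.

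Csf1 encodes the principal ligand of CSF1R and lies on the reverse strand of chromosome 3 of GRCm38 (mm10), from 107741048 to 107760469. Its level was 5.67, 5.84, 5.11 and 4.96 in the 4 cxC26 scr tumors and 7.78, 8.07, 7.57 and 7.65 in the 4 cxC26 IL6KOs1 tumors, from 478 to 927 and from 2909 to 3711 reads. Every cxC26 IL6KOs1 tumor was above every cxC26 scr tumor, and the lower group was itself split into a higher and a lower pair of tumors. The mean rose from 5.39 ± 0.43 to 7.77 ± 0.22 log2 CPM (SD, n = 4 each), a 5.18-fold increase (log2 fold change 2.37, SE 0.18, limma adjusted p = 4.59e-06). Only 0.958% of the tested genes, Csf1 included, had a log2 fold change as high. The 85 tested genes in the fixed 10 Mb window that holds Csf1 had a median log2 fold change of 0.10. Epithelial and fibroblast markers, of cells that can make CSF1, moved in different ways. Of 5 epithelial markers, the 2 tested rose from low levels (above), and Epcam, Krt8 and Krt19 were below the filter. Of 5 fibroblast markers, 1 rose, 2 fell and 2 were not called. Their part in the change of Csf1 was not tested.

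Il34 encodes the other ligand of CSF1R, known for maintaining Langerhans cells and microglia. It is on the reverse strand of chromosome 8 from 110741829 to 110805924. Its level was 6.45, 6.78, 6.75 and 6.86 in the cxC26 scr tumors and 7.56, 7.23, 7.27 and 7.05 in the cxC26 IL6KOs1 tumors. The groups did not overlap, but the gap between the highest cxC26 scr tumor and the lowest cxC26 IL6KOs1 tumor was small. The mean rose from 6.71 ± 0.18 to 7.27 ± 0.21 log2 CPM (SD, n = 4 each), 1.48-fold (log2 fold change 0.56, SE 0.12, limma adjusted p = 0.00321). Two-sided exact permutation tests gave p = 0.0286 for Csf1 and for Il34, and groups of 4 and 4 cannot give a smaller value. The antisense genes Gm15894 and Gm15895 overlap Il34 in the annotation, and since the strand setting of the counting is not named, their reads cannot be told apart from those of Il34.

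Csf1r, on the forward strand of chromosome 18 from 61100598 to 61132149, encodes the shared receptor of both ligands. Its level was nearly the same in the 4 cxC26 scr tumors, at 5.85, 5.98, 6.04 and 6.02, and was 7.55, 6.95, 7.32 and 7.09 in the cxC26 IL6KOs1 tumors. All tumors of the second group were higher, with the first tumor highest. The mean rose from 5.98 ± 0.08 to 7.23 ± 0.27 log2 CPM (SD, n = 4 each), 2.38-fold (log2 fold change 1.25, SE 0.12, limma adjusted p = 2.09e-05), and the log2 fold change was 1.14 without the first cxC26 IL6KOs1 tumor. The median of the 63 tested genes in its 10 Mb window was -0.12. Hmgxb3 overlaps the end of Csf1r on the other strand.

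Per length, the level of Il34 was the highest of the 9 genes in both groups. In CPM per kb of exon it was 53.8 ± 6.31 in the cxC26 scr tumors and 79.7 ± 12 in the cxC26 IL6KOs1 tumors (SD, n = 4 each). Csf1r came second in the cxC26 scr tumors at 10.9 ± 0.626 CPM per kb, and Csf1 followed at 8.23 ± 2.39, and the SDs of these neighbours overlapped. In the cxC26 IL6KOs1 tumors Csf1 was second at 41.6 ± 6.49 CPM per kb and Csf1r followed at 26.3 ± 4.89. Csf2ra had 5.81 ± 0.628 and 12.5 ± 4.38 CPM per kb, Csf2rb 3.34 ± 0.247 and 3.94 ± 1.36, Csf2rb2 2.91 ± 0.435 and 3.04 ± 0.975, and Csf3r 1.87 ± 0.406 and 2.45 ± 0.95. The neighbours Csf2rb, Csf2rb2 and Csf3r overlapped by their SD in the cxC26 IL6KOs1 tumors, as did Csf1 with Csf2ra and Csf2rb with Csf2rb2 in the cxC26 scr tumors. These levels use all annotated exons of a gene, and a transcript that uses fewer exons would be understated.

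The balance of the ligands within each tumor was then compared, after the values above had been seen. The ratio of Csf1 to Il34 in CPM per kb was 0.215, 0.194, 0.119 and 0.099 in the cxC26 scr tumors and 0.433, 0.664, 0.459 and 0.563 in the cxC26 IL6KOs1 tumors. Il34 was thus above Csf1 in all 8 tumors, and the ratio was higher in every cxC26 IL6KOs1 tumor, by 1.81 on the log2 scale. Csf1 relative to its receptor gene was 0.963, 0.99, 0.573 and 0.523 in the cxC26 scr tumors, below 1 in each, and 1.28, 2.38, 1.31 and 1.61 in the cxC26 IL6KOs1 tumors, above 1 in each. Both ratios had p = 0.0286 in two-sided exact permutation tests. Over the 8 within-tumor differences compared, the Benjamini-Hochberg adjusted p was 0.0571, so neither passed 0.05 after adjustment. As 0.0286 is the smallest p-value these permutation tests can give, this outcome depends on how many differences were compared and how many reached it. It does not reflect the size of the changes.

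**Figure D2:**
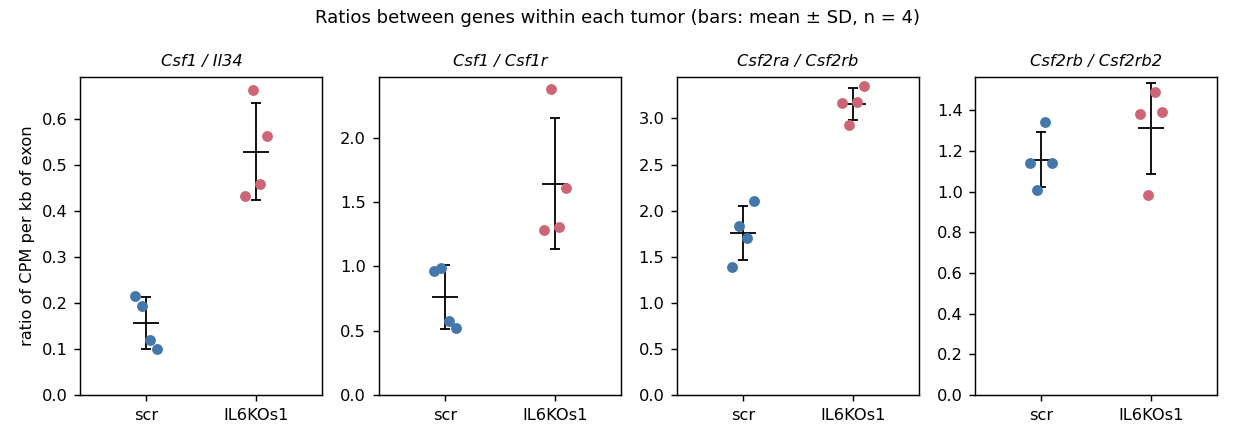
Ratios between genes within each tumor, each in CPM per kb of exon (vertical axes from 0), for the 4 cxC26 scr tumors (blue) and the 4 cxC26 IL6KOs1 tumors (red), with mean and SD as black bars. Csf1 to Il34, Csf1 to Csf1r and Csf2ra to Csf2rb do not overlap between the groups, and Csf2rb to Csf2rb2 does.

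Promoter windows of the rising genes Csf1 and Csf2ra are shown because these were the rising genes with a window at hand. RefSeq windows on GRCm38.p6 existed for Csf1, Csf2, Csf2ra, Csf2rb2 and Csf3r, and not for Il34, Csf1r, Csf2rb and Csf3. The 250 bases before the RefSeq start of Csf1 (chr3:107760470-107760719, reverse strand) and of Csf2ra (chr19:61228419-61228668, reverse strand) are given 5′ to 3′, with matches in capitals. GENCODE starts Csf2ra at 61228429 on the reverse strand, so the last bases of its window lie inside the GENCODE gene.
Csf1: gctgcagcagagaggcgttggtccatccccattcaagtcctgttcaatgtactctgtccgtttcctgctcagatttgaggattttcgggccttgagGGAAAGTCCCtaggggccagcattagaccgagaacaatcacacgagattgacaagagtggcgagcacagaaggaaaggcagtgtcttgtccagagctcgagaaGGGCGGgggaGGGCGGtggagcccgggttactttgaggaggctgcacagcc
Csf2ra: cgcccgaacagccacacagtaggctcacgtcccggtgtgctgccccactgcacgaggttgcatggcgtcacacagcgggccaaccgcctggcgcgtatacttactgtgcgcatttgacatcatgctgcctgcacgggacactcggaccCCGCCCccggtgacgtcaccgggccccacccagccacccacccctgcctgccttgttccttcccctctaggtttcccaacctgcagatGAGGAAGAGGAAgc
The motifs searched on both strands were the TATA box (TATAAA), the GC box (GGGCGG), AP-1 (TGANTCA), a STAT motif (TTCNNNGAA), PU.1 (GAGGAA) and NF-kB, and the matches printed do not overlap each other. In the Csf1 window the capitals mark 1 NF-kB match and 2 GC boxes, and in the Csf2ra window 1 GC box and 2 adjoining PU.1 matches. The PU.1 matches lie wholly or partly inside the GENCODE gene. Of all 32851 promoter windows, 7.25% held the NF-kB motif, 32.7% a GC box and 23.3% the PU.1 motif. The other motifs had 0 matches in both windows. They were held by 12.4% (TATA box), 6.75% (AP-1) and 7.02% (STAT) of all windows. Such matches were not particular to the rising genes. The Csf3r window held 1 PU.1 and 1 NF-kB match, and the Csf2rb2 window 1 PU.1 and 1 STAT match. Neither gene was called. The window of Csf2, a gene below the filter, held 1 GC box.

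The GM-CSF receptor changed in its alpha chain. Csf2ra encodes the chain that binds GM-CSF specifically and lies on the reverse strand of chromosome 19 from 61223957 to 61228429. Its level was 3.86, 4.16, 3.99 and 4.21 in the cxC26 scr tumors and 5.76, 4.74, 4.91 and 5.00 in the cxC26 IL6KOs1 tumors. The groups did not overlap, and the first cxC26 IL6KOs1 tumor was well above the other 3. The mean rose from 4.05 ± 0.16 to 5.10 ± 0.45 log2 CPM (SD, n = 4 each), 2.07-fold (log2 fold change 1.05, SE 0.19, limma adjusted p = 0.00136). Without the first cxC26 IL6KOs1 tumor the log2 fold change was 0.83. The 11 tested genes of its 10 Mb window, the last of the chromosome, had a median log2 fold change of 0.48, and the part of this regional shift in the change of Csf2ra was not tested.

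Csf2rb, on chromosome 15 from 78325752 to 78353847, encodes the signalling beta chain used by the receptors of GM-CSF, IL-3 and IL-5. Its level was 4.73, 4.63, 4.57 and 4.48 in the cxC26 scr tumors and 5.44, 4.53, 4.59 and 4.59 in the cxC26 IL6KOs1 tumors. Apart from the first tumor, the cxC26 IL6KOs1 values lay within the range of the cxC26 scr tumors. The log2 fold change of 0.19 (95% interval from -0.21 to 0.59, limma adjusted p = 0.444) did not pass the test, and it was -0.03 without that tumor.
Csf2rb2 encodes the beta chain that in mice serves IL-3 alone, and it lies on chromosome 15 from 78282507 to 78305721, next to Csf2rb and on the other strand. Its level was 3.92, 3.99, 3.52 and 3.67 in the cxC26 scr tumors and 4.36, 3.94, 3.39 and 3.50 in the cxC26 IL6KOs1 tumors. The first cxC26 IL6KOs1 tumor was the highest of the 8 and 2 others of its group were the lowest, and the log2 fold change was 0.02 (95% interval from -0.43 to 0.47, limma adjusted p = 0.943). The log2 fold change was -0.17 without the first cxC26 IL6KOs1 tumor, -0.05 after quantile normalization and also below 0 without each of 3 other tumors, so no direction can be given.

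The beta chain genes are close copies, and their reads can be mixed. In an alignment of the longest coding sequences, 2504 of 2626 aligned bases were identical (95.4%), and the longest identical run was 242 bases, against reads of 150 bases. Of the 4751 stretches of 150 bases in the Csf2rb transcript, 165 (3.47%) also occurred in the Csf2rb2 transcript. The 60-base stretch in which the coding sequences differ most is shown to make visible what separates their reads. It lies at chr15:78338893-78338952 on the forward strand for Csf2rb and at chr15:78294379-78294438 on the reverse strand for Csf2rb2 (GRCm38), each within a single coding exon, and the 13 differing bases are in capitals.
Csf2rb: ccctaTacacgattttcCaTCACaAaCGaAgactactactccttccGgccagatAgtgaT
Csf2rb2: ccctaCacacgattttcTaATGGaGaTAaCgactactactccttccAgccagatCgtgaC
The ratio of Csf2rb to Csf2rb2 in CPM per kb was between 1.01 and 1.34 in the cxC26 scr tumors and between 0.982 and 1.49 in the cxC26 IL6KOs1 tumors. This ratio did not pass a two-sided exact permutation test (p = 0.343, adjusted p = 0.392 over the 8 within-tumor differences).

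The difference between the alpha chain and the beta chains was compared within tumors, after the values above had been seen. Csf2ra had already risen without overlap and the beta chains had not been called, so these tests add little to those results. The ratio of Csf2ra to Csf2rb in CPM per kb was 1.39, 1.83, 1.7 and 2.1 in the cxC26 scr tumors and 3.17, 2.93, 3.18 and 3.35 in the cxC26 IL6KOs1 tumors. Here the first cxC26 IL6KOs1 tumor did not stand apart, and the groups did not overlap. On the log2 scale the ratio was higher by 0.86 against Csf2rb and by 1.03 against Csf2rb2 in the cxC26 IL6KOs1 tumors, each with p = 0.0286 in a two-sided exact permutation test and an adjusted p of 0.0571 over the 8 differences. Both are again at the smallest p-value the test can give, so the adjusted p does not reflect the size of the changes.

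The ligand of this receptor, Csf2 (GM-CSF), was near the limit of detection. Its reads numbered 0, 1, 2 and 1 in the controls (cxC26 scr) and 5, 2, 1 and 3 in the cxC26 IL6KOs1 tumors, or at most 0.338 CPM. The counts overlapped, and a two-sided exact permutation test of the log2 CPM gave p = 0.0857. No fold change is given, since all tumors but the first cxC26 IL6KOs1 tumor were at 3 reads or fewer. Gm12223 overlaps Csf2 on the other strand. At this depth a difference in Csf2 was not detectable.
Csf3, the gene for G-CSF, was counted with 6, 2, 1 and 2 reads in the controls (cxC26 scr) and with 1, 3, 1 and 3 in the cxC26 IL6KOs1 tumors. Only the first cxC26 scr tumor exceeded 3 reads, and the groups overlapped (two-sided exact permutation test of the log2 CPM, p = 0.629).

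Csf3r, on the forward strand of chromosome 4 from 126024550 to 126044440, encodes the receptor of G-CSF and is known for its expression in neutrophils and their precursors. Its level was 2.47, 3.14, 2.76 and 2.56 in the cxC26 scr tumors and 3.80, 2.74, 2.80 and 2.97 in the cxC26 IL6KOs1 tumors. Only the first cxC26 IL6KOs1 tumor was above all cxC26 scr tumors. The log2 fold change of 0.34 (95% interval from -0.19 to 0.88) did not pass the test (limma adjusted p = 0.282), and it was 0.10 without that tumor.

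**Figure D3:**
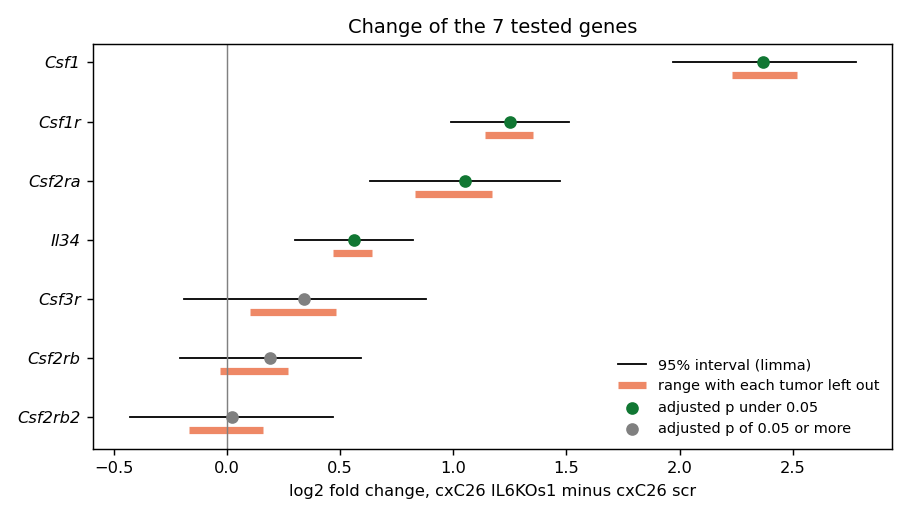
Log2 fold change of the 7 tested genes (horizontal axis, cxC26 IL6KOs1 minus cxC26 scr; points), with the 95% interval from limma (black lines) and the range obtained when each tumor was left out in turn (orange bars). Green points (Csf1, Csf1r, Csf2ra and Il34) had an adjusted p-value under 0.05, and the intervals of Csf3r, Csf2rb and Csf2rb2 include 0.

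The receptor genes were set beside markers of the cells that carry them. Of 12 macrophage and monocyte markers, 11 rose and 1 fell (Mertk, log2 fold change -0.36, limma adjusted p = 0.00983), with a median log2 fold change of 1.11. Among the risers, Ly6c2 (48 and 359 reads over the groups) needed the cxC26 IL6KOs1 tumors, where it was higher, to pass the filter. It is included in the count, the median and the mean level below. Mrc1 lost its call without 1 tumor in 6 of the 8 possible omissions (log2 fold change 0.52, range 0.41 to 0.73). Adgre1, the gene for F4/80, rose from 5.11 ± 0.23 to 6.61 ± 0.34 log2 CPM, and Lyz2, the lysozyme gene of myeloid cells, rose from 8.41 to 9.61 (n = 4 each). The mean level of the 12 markers was between 5.21 and 5.40 log2 CPM in the cxC26 scr tumors and between 6.11 and 6.82 in the cxC26 IL6KOs1 tumors, with the first cxC26 IL6KOs1 tumor highest. Csf1r exceeded this mean by 0.68 ± 0.11 in the cxC26 scr tumors and by 0.83 ± 0.13 log2 units in the cxC26 IL6KOs1 tumors (SD, n = 4 each), a difference of 0.16 that did not pass a two-sided exact permutation test (p = 0.114, adjusted p = 0.183 over the 8 differences). Csf2ra less the mean was -1.24 ± 0.18 and -1.29 ± 0.16 log2 units (SD, n = 4 each, two-sided exact permutation test, p = 0.6). The part of the macrophage content in the rise of both receptor genes was not tested.

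Neutrophil markers were low and mixed. Of 10 markers, 3 passed the filter. S100a8 had 207 and 399 reads over the groups and rose (log2 fold change 0.97, limma adjusted p = 0.00282), S100a9 had 205 and 239 and was not called, and Mmp8 had 102 and 42 and fell (-1.34, limma adjusted p = 0.0361), a call that was lost in 6 of the 8 fits with a tumor left out. Mmp8 needed the cxC26 scr tumors, where it was higher, to pass the filter. Of the 7 markers below the filter, Ly6g, the defining neutrophil marker of mice, had 0 and 3 reads, Elane 2 and 7, Ngp 5 and 81, Camp 9 and 43, Retnlg 30 and 17, Cxcr2 45 and 37 and Mpo 53 and 50. The mean level of the 3 tested markers ranged from 0.71 to 2.00 log2 CPM in the cxC26 scr tumors and from 0.62 to 1.94 in the cxC26 IL6KOs1 tumors. Csf3r less this mean changed by 0.31 (two-sided exact permutation test, p = 0.286). Eosinophil markers, for the IL-5 arm of the shared beta chain, had 1 of 4 genes past the filter. It was Ccr3, with 10 and 150 reads over the groups, which passed only through the cxC26 IL6KOs1 tumors. Siglecf had 13 and 8 reads, Prg2 10 and 12 and Epx 1 and 0.

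**Figure D4:**
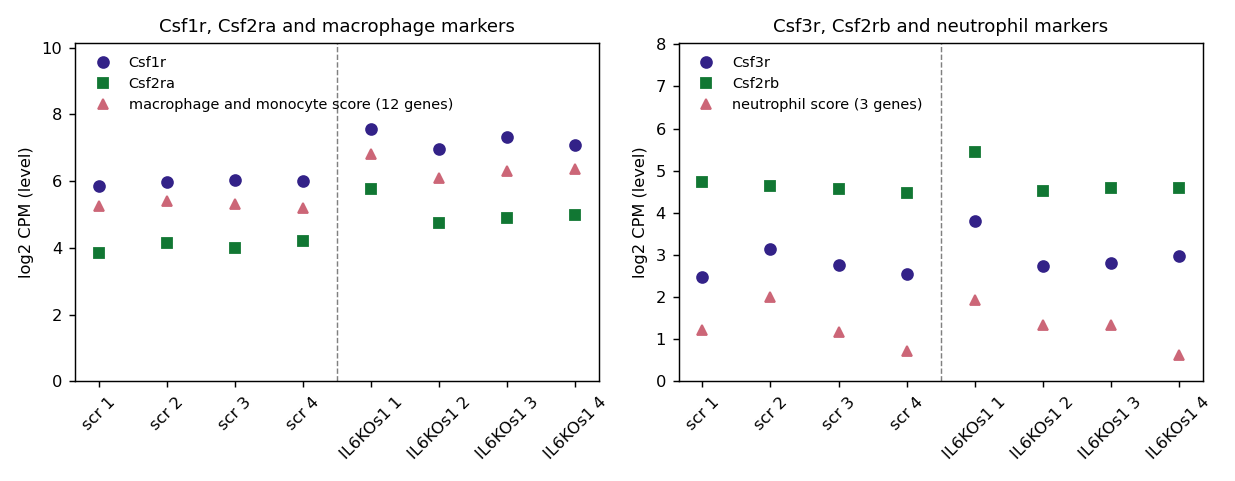
Levels in log2 CPM (vertical axes) in each of the 8 tumors (horizontal axis, groups parted by a dashed line), for Csf1r and Csf2ra beside the mean (score) of 12 macrophage and monocyte markers (left) and for Csf3r and Csf2rb beside the mean of 3 neutrophil markers (right). The macrophage mean is higher in all 4 cxC26 IL6KOs1 tumors, as are Csf1r and Csf2ra, and the neutrophil mean overlaps between the groups.

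Signalling partners of CSF1R rose in part. Of 6 genes, 4 rose, 1 fell and 1 was not called, where 19.1% of all tested genes rose and 20.7% fell. The rising genes were Tyrobp, the adaptor DAP12 of myeloid receptors (log2 fold change 1.32), Plcg2, a phospholipase (1.22), Ptpn6, the phosphatase SHP-1 (1.22), and Inpp5d, the lipid phosphatase SHIP1 (0.99), each with an adjusted p from limma of 0.000935 or lower. Cbl, a ubiquitin ligase that takes part in the removal of activated CSF1R, had a mean of 4.92 ± 0.29 in the controls and fell to 4.19 ± 0.27 log2 CPM (SD, n = 4 each, limma adjusted p = 0.00457), and Grb2, an adaptor expressed in most cells, had a log2 fold change of 0.02. Tyrobp, Ptpn6 and Inpp5d are themselves characteristic of leukocytes.
Of 7 transcription factors known to act on the receptor genes, 5 were tested and 2 rose, where 19.1% of all tested genes rose. Spi1, which encodes PU.1, the myeloid factor that activates Csf1r, rose from 3.73 ± 0.20 to 5.21 ± 0.37 log2 CPM (SD, n = 4 each), and Irf8 rose by 0.81 (limma adjusted p = 9.17e-05 and 0.0333). For Irf8 the log2 fold change was 0.50 without the first cxC26 IL6KOs1 tumor (limma adjusted p = 0.041), and the call was lost without replicate 1 or 3 of cxC26 scr. Cebpa (log2 fold change 0.33), Cebpb (-0.11) and Runx1 (-0.05) did not pass. Cebpe had 5 and 12 reads over the groups and Gfi1 had 16 and 24, both below the filter.
Of 2 other binding partners of IL-34, 1 was tested. Sdc1, the gene for syndecan-1, fell by 0.78 on the log2 scale (limma adjusted p = 5.6e-05), and Ptprz1, below the filter, had 2 and 6 reads.

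Among the relatives that share the beta chain, Il3ra, the alpha chain of the IL-3 receptor, was the only 1 of 4 genes that passed the filter, and it fell. Its mean was 3.84 ± 0.13 log2 CPM in the cxC26 scr tumors and 2.98 ± 0.38 in the cxC26 IL6KOs1 tumors (SD, n = 4 each, log2 fold change -0.86, limma adjusted p = 0.00342), opposite in direction to Csf2ra. Il3 had 0 and 1 reads over the groups, Il5 had 2 and 0, and Il5ra had 6 and 3.

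Of 10 genes of JAK, STAT5 and STAT3 signalling, 2 rose, 3 fell and 5 were not called. These counts stand beside 19.1% of all tested genes that rose and 20.7% that fell. Cish, a feedback inhibitor and target of STAT5, had a mean of 3.20 ± 0.23 log2 CPM in the controls and fell to 1.85 ± 0.47, whereas Socs2, another target of STAT5, rose from 2.26 ± 0.32 to 3.25 ± 0.37 (SD, n = 4 each, limma adjusted p = 0.00102 and 0.00455). Pim1, a kinase induced by STAT factors, rose by 0.55 (limma adjusted p = 0.0467), a call lost in 7 of the 8 fits with a tumor left out, with a log2 fold change of 0.33 without the first cxC26 IL6KOs1 tumor. Socs3, the feedback inhibitor of the receptors of G-CSF and IL-6, fell (log2 fold change -0.86, limma adjusted p = 0.00127), and so did Stat3 (-0.52, limma adjusted p = 0.00236). Jak2, the kinase that associates with the beta chain, had a log2 fold change of -0.13, Jak1 of 0.04, Stat5a of 0.34, Stat5b of -0.17 and Bcl2l1 of 0.24, none past the threshold.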

How the data were processed

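RNA-seq of 8 tumors was used, 4 in each group, with groups and replicate numbers taken from the sample titles. According to the methods of the study, the authors worked on Galaxy, where paired reads passed Trimmomatic, Hisat2 (mm10) and featureCounts, and they deposited log2 CPM from limma-voom, the log2 of reads plus 0.5 over the effective library size plus 1. Per the submitters' processing notes bcl2fastq 2.17 was used. The gene annotation, the strand setting and the treatment of reads with several matches are not given in the sources used here. Reads were recovered by inverting this form, and 100% of values came out whole within 0.01. They totalled 14158989 to 17048062 per tumor, which limits genes of few reads.

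All tests were fitted on 13262 genes, those reaching 1 CPM in 4 or more tumors, with limma 3.58.1 in R 4.3.3 (mean-variance trend, no covariates, Benjamini-Hochberg adjustment over all tested genes, threshold 0.05), and checked on simulated data. Exact permutation tests enumerated 70 divisions of the tumors. The labels tie no tumor to an individual mouse. The p-values set the difference of group means against the spread between tumors within a group. As the cxC26 IL6KOs1 tumors came from a single subclone, this spread holds no variation between subclones. Same-numbered tumors did not deviate together (correlations from -0.0593 to 0.057), so the number was not used as a block. Alternatives were other filters, scalings, a pseudocount of 1 CPM, limma-voom weights, no trend, the replicate block and each tumor left out in turn. Positions and exon lengths came from GENCODE M21, promoters from RefSeq (GRCm38.p6), and windows of 10 Mb from the 13001 tested genes with a RefSeq position. The genes, marker lists and rules for naming genes (all 9 genes, every gene of the pathway lists, and of each marker list its counts, its mean and the leading markers) were chosen with earlier results of these data known, and the within-tumor ratios were chosen after the values had been seen. Some markers are named beyond that rule because they define a cell type.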

Additional observations from a re-analysis of the deposited data

Results flagged for a closer look

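Each of 68 sets of 4 tumors was searched for a tumor that lay apart, by Dixon's ratio of the gap to the range with its 95% limit. Such a tumor was found in 6 sets. Chance alone gives about 1 in 20, or 3.4 sets here. In 5 of the 6 it was the first cxC26 IL6KOs1 tumor. Csf2rb was high in that tumor, with 5.44 log2 CPM where the remaining 3 had 4.53 to 4.59. Csf2ra less the mean of the macrophage markers was also high there, at -1.06 against -1.38 to -1.35. Among the lists, the mean of the JAK, STAT5 and STAT3 genes was high in that tumor (5.73 against 5.24 to 5.32), as was Zbtb46, the tested gene of the dendritic cell list (1.42 against 0.82 to 0.90), and the mean of the mast cell markers was low (2.20 against 4.34 to 4.43). The tumor highest in Csf2rb was therefore the lowest of its group in mast cell markers and the highest in macrophage markers. In the second cxC26 IL6KOs1 tumor, Csf2ra less Csf2rb2 per length was low, at 1.53 against 2.12 to 2.25.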

How the results depend on the processing

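Csf1, Csf1r, Csf2ra and Il34 were called higher and 0 genes of the family lower under all 16 alternatives. Leaving out single tumors gave log2 fold changes from 2.23 to 2.52 for Csf1, from 1.14 to 1.35 for Csf1r, from 0.83 to 1.17 for Csf2ra and from 0.47 to 0.64 for Il34, with adjusted p-values of 0.00968 or lower from limma. They were 0.10 to 0.48 for Csf3r, from -0.03 to 0.27 for Csf2rb and from -0.17 to 0.16 for Csf2rb2, none past the threshold. The sign of Csf2rb turned without the first cxC26 IL6KOs1 tumor. The sign of Csf2rb2 turned under quantile normalization (-0.05) and without the first or second cxC26 IL6KOs1 tumor or replicate 3 or 4 of cxC26 scr. The cause was not tested. With the replicate block, 4 genes of the family and 2477 genes in all were higher and 2688 lower, against 2529 and 2748 without it, and no call among the family changed. Over all genes, the calls ranged from 2023 to 2540 higher and from 2193 to 2674 lower with a tumor left out. Csf3r was removed by the stricter filter (mean level of 3 log2 CPM). Without a filter, Csf2 and Csf3 could be fitted and were not called (adjusted p = 0.268 and 0.777 from limma), and their depth of a few reads limits both. The calls of pathway and marker genes with a tumor left out were examined after seeing the data.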

Other observations

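Markers of other cell types were also counted. Osteoclasts form under CSF1. Of their 6 markers, Ctsk, Acp5 and Ocstamp passed the filter in both groups and rose, with log2 fold changes of 3.42, 3.49 and 2.00. Dcstamp (16 and 403 reads over the groups) and Oscar (24 and 242) passed only through the cxC26 IL6KOs1 tumors, and Calcr had 0 and 10 reads. Of 6 mast cell markers, 4 passed the filter and rose, among them Tpsb2 (3.12) and Mcpt4 (3.17). Both were lowest of their group in the first cxC26 IL6KOs1 tumor, and Tpsb2 had a log2 fold change of 3.87 without it. Cpa3, another of the 4 (66 and 853 reads over the groups), needed the cxC26 IL6KOs1 tumors to pass the filter. Of 6 dendritic cell markers only Zbtb46 was tested and it fell (log2 fold change -2.42, adjusted p = 6.95e-06 from limma). The others, all below the filter, had more reads in the cxC26 IL6KOs1 tumors. Flt3 had 29 and 64 reads, Xcr1 13 and 42, Siglech 29 and 65, Ccr7 33 and 110 and Clec9a 26 and 37. Of 6 T and natural killer cell markers, known sources of GM-CSF, Cd4 was tested and rose (1.25). Cd4 also needed the cxC26 IL6KOs1 tumors to pass the filter (68 and 147 reads over the groups). Cd8a, with 5 and 222 reads, passed only through the cxC26 IL6KOs1 tumors, and the other 4 were below the filter. Fibroblast markers were mixed, with 1 higher, 2 lower and 2 not called, 0 of 4 endothelial markers were called by limma, and the 1 tested B cell marker, Cd79a, was not called.

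The genes with the most similar profile over the 8 tumors were sought by the smallest root mean square difference of log2 CPM after removal of each gene's mean. For Csf1 they were an entry without a symbol, Cst6 (0.174 log2 units) and Igfbp6 (0.233). The entry and Cst6 had means of -0.27 and -0.32 log2 CPM in the cxC26 scr tumors. Both therefore needed the cxC26 IL6KOs1 tumors, where they were higher, to pass the filter. With 2 groups this measure depends largely on the log2 fold change, which was 2.54, 2.61 and 2.20 for these genes and 2.37 for Csf1. For Csf1r they were Cysltr1 (0.068), Ncf1 (0.0885) and Sp100 (0.0888), and for Csf2ra they were C1qa (0.109), Ptpn18 (0.112) and Msr1 (0.123).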
